A study of Arabidopsis thaliana with 9 samples.

Results

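The mock seeds of this series were seeds of DOF6ioex, an Arabidopsis thaliana line in which β-estradiol induces overexpression of DOF6, a gene for a Dof zinc finger transcription factor. They were harvested fresh and imbibed for 8 h without the inducer. The sample labels give water as the medium, and the titles call the same samples mock. All 3 mock libraries of the 9 libraries in the series are described, here as mock 1, mock 2 and mock 3, and no other group was used. The labels do not say whether the 3 came from separate plants or harvests, so the spread between them may be technical. They also do not name the promoter or the cells that drive the inducible construct. The libraries hold whole seeds, and in RNA of mixed tissues fewer cells of a type and less RNA per cell cannot be told apart.

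A mature Arabidopsis seed holds an embryo and a single layer of living endosperm inside a seed coat whose cells have died. During maturation the embryo lays down storage proteins, oil in bodies coated by oleosins, and late embryogenesis abundant (LEA) proteins that accompany drying, and many of these transcripts are stored in the dry seed. Freshly harvested seeds of this species are usually dormant, a state that abscisic acid holds and gibberellin ends, and imbibition starts water uptake whether or not germination follows.

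Levels were given as FPKM, fragments mapped to a transcript divided by its length and by the size of the library, which is a level per length. A total of 22004 genes was listed for at least 1 mock library. The FPKM totals were 751827 in mock 1, 751014 in mock 2 and 747669 in mock 3, so the shares of the total given below are on nearly the same scale in each. Depth was not given. It was estimated from the steps between low values at 29700000, 30100000 and 30900000 fragments in mock 1, 2 and 3 with 50 bases taken off each transcript length, and at 26200000 to 26700000 with full lengths. At the higher estimate 1 FPKM of a transcript of 1000 bases stood for 28.2 to 29.4 fragments.

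The labelled tissue was checked against markers. All 10 storage protein and oleosin markers were present, and their summed level was 140373, 113458 and 109298 FPKM in mock 1, 2 and 3. Of 6 endosperm markers 4 reached 1 FPKM. EPR1 led them, followed by MFT at 46.7 FPKM, ICE1 at 25.9 and EXPA2 at 4.28, while ZOU and NAC25 stayed below 0.05. Among 6 embryo regulators ABI3 averaged 77.5 FPKM, WOX2 41.4 and FUS3 5.22, while LEC1, LEC2 and WOX8 were below 0.05 or not listed in all 3 libraries. Of 9 seed coat markers only MUM4, an enzyme gene of mucilage synthesis, exceeded 1 FPKM, at 2.82. The flower, root hair, guard cell, xylem and silique lists had no member at 1 FPKM, and their summed levels stayed at or below 0.79 FPKM in every library. Of 6 leaf markers RBCS1A reached 25.8 and LHCB1.3 1.16 FPKM, and of 4 pollen markers PPME1 reached 2.80. DOF6 itself was listed at 0.64, 0.86 and 0.41 FPKM in mock 1, 2 and 3, under the level of 1 FPKM used below to call a gene expressed, and whether fragments of the construct were counted with the native gene is not given. RGL2, a DELLA gene of gibberellin signalling, stood at 10.4, 13.1 and 8.86 FPKM.

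A small number of transcripts made up most of the total. The 11 genes with a mean of at least 10000 FPKM held 30.4% of it, the 85 genes at 1000 FPKM or more held 56.8%, and the 643 genes at 100 or more held 73.6%. Ranked by mean FPKM, the top gene alone held 6.45% ± 0.811 (SD, n = 3), the top 10 held 28.9% ± 0.685 and the top 100 held 58.5% ± 0.492. It took 48 genes to reach 50% of the total, and 46, 47 and 51 genes when mock 1, 2 and 3 were ranked alone. At the other end, 13273 genes (60.3% of those listed) averaged at least 1 FPKM, with a median of 9.02, and together they held 99.8% of the total. In single libraries 13364, 13184 and 13247 genes reached that level, and 12837 did so in all 3. Another 2527 genes were below 0.05 FPKM or not listed in each library.

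**Figure D1:**
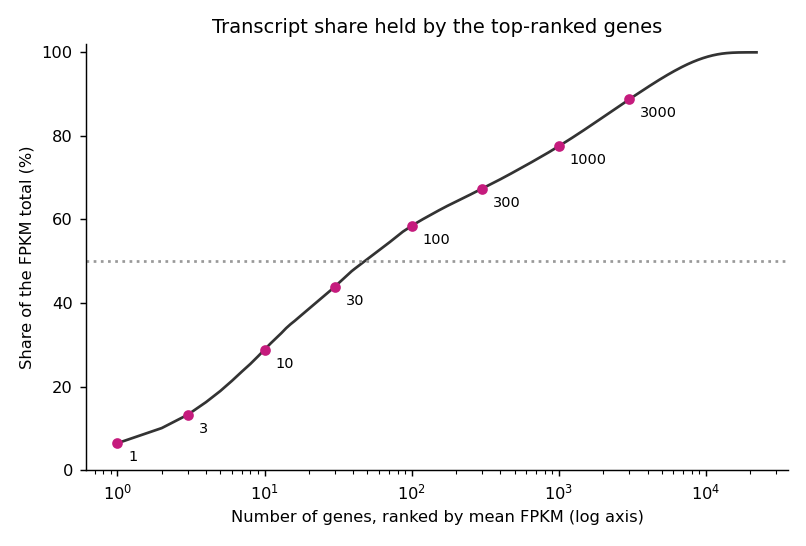
Share of the FPKM total (vertical axis, percent) held by the top-ranked genes (horizontal axis, number of genes by mean FPKM over the 3 mock libraries, log scale), with points at 1, 3, 10, 30, 100, 300, 1000 and 3000 genes and a dotted line at 50%. The curve passes 28.9% at 10 genes, 58.5% at 100 and 77.6% at 1000.

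EPR1 (AT2G27380), a gene for an extensin-like proline-rich protein that is known from the endosperm at the radicle tip, was the most abundant transcript in each library, with 42103, 54199.8 and 48812 FPKM in mock 1, 2 and 3 (48372 ± 6060.2, SD, n = 3). Mock 1 was the lowest and mock 2 the highest, and EPR1 exceeded the next gene in each library. Rank 2 was SESA3, a gene for a 2S albumin (napin), the small sulfur-rich class of storage protein, with 34723, 23842 and 22812 FPKM. Here mock 1 was far above the other two. SESA5, also a napin gene, followed with 22889.8, 24612.5 and 24127.5 FPKM and was lowest in mock 1.

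RAB18 (AT5G66400), a dehydrin gene that abscisic acid is known to induce, ranked 4 with 21458, 24460.4 and 22325 FPKM (22748 ± 1545, SD, n = 3). LCR67 (AT1G75830), for a plant defensin, ranked 5 with 18185, 20081.5 and 21560.4 FPKM, with mock 1 the lowest. CRU3, for a cruciferin, the large globulin class of storage protein, had 23277, 15680.1 and 16004 FPKM. As for SESA3, mock 1 stood apart while mock 2 and mock 3 were close to each other. OLEO1, for the main oleosin on the surface of oil bodies, had 17494, 16696.5 and 15181 FPKM, with mock 3 the lowest.

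Ranks 9 and 10 were storage proteins as well. PAP85, for a vicilin-like cupin, had 14003, 13227 and 13003 FPKM, and CRA1, for a cruciferin, had 14264, 11358 and 11470.1 FPKM. Both were highest in mock 1, CRA1 by the wider gap. Rank 11, AT1G54870, annotated as an NAD(P)-binding Rossmann-fold protein, had 10864, 11099.7 and 11706.5 FPKM, and rank 12, AT1G68250, annotated as uncharacterised, had 9613, 9162 and 9977 FPKM. Both varied less between libraries than SESA3 did, with coefficients of variation (CV, the SD as a percent of the mean) of 3.87% and 4.26% against 24.3%. Among the 30 top genes 8 were storage proteins, 6 LEA proteins or dehydrins and 4 oil body proteins. The remaining places included ICL, for isocitrate lyase of the glyoxylate cycle, with 4749, 4686 and 4772 FPKM, and HSP17.4, for a small heat shock protein, with 3978, 4453 and 4483 FPKM.

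For 4 of the 30 top entries (AT5G35660, AT5G11980, AT2G05580 and AT2G35250) the transcript length in the deposited tables lay outside 0.8 to 1.25 times the lengths in the reference. The locus is therefore named here without a role. AT5G35660 was the highest of them, with 12421, 14476.5 and 14627 FPKM. The same held for 423 genes in all, 10 of them among the top 100, and they were kept in a class of their own that held 5.55% of the total.

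**Figure D2:**
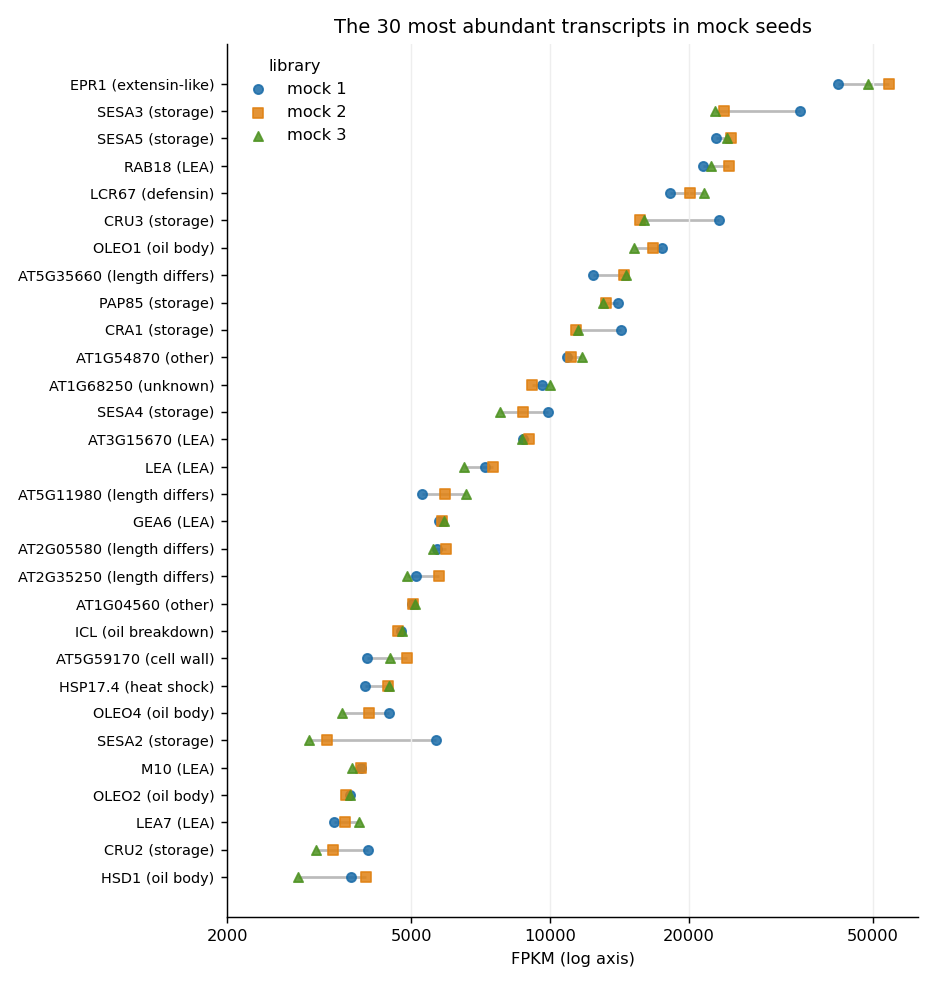
FPKM (horizontal axis, log scale) of the 30 genes with the highest mean in the mock seeds, from rank 1 at the top to rank 30 at the bottom, with 1 point per library, a grey line from the lowest to the highest library and the class in brackets. SESA3, CRU3 and SESA2 have the longest lines, with mock 1 to the right of the other libraries, while AT1G04560, OLEO2 and ICL are nearly the same in all 3.

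The 250 bases before the annotated start of 4 of the most abundant transcripts are shown because their letters differ in a way that is then counted over all genes. They are read 5′ to 3′ on the strand of the gene from the RefSeq TAIR10.1 assembly. EPR1 is on the plus strand, with the window at chr2:11713161-11713410 and the gene from 11713411 to 11715774. SESA3 is on the plus strand, with the window at chr4:13611546-13611795 and the gene from 13611796 to 13612563. OLEO1 is on the plus strand, with the window at chr4:12900180-12900429 and the gene from 12900430 to 12901577. GEA6, an Em-type LEA gene, is on the minus strand, with the window at chr2:16780369-16780618 and the gene from 16779552 to 16780368. None of these windows lies over another annotated gene. Capitals mark ACGTG, the core of the element bound by abscisic acid related bZIP factors, and CATGCA, the core of the RY element bound by B3 factors such as ABI3, both also as their reverse complements CACGT and TGCATG. Copies may overlap, and CACGTG holds ACGTG on both strands.
EPR1: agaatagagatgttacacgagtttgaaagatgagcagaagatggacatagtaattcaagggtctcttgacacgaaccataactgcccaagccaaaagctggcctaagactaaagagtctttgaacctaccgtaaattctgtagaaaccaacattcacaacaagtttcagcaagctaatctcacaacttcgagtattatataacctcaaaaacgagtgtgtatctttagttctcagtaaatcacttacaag
SESA3: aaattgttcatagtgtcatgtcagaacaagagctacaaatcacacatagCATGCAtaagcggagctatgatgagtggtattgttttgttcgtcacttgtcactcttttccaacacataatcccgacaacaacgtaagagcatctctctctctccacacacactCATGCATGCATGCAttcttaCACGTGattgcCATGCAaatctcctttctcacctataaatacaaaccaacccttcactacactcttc
OLEO1: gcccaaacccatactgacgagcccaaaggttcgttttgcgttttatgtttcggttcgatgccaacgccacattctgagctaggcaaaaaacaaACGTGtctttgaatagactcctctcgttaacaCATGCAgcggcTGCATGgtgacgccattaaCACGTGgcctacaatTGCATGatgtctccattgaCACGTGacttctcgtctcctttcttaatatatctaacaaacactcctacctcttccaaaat
GEA6: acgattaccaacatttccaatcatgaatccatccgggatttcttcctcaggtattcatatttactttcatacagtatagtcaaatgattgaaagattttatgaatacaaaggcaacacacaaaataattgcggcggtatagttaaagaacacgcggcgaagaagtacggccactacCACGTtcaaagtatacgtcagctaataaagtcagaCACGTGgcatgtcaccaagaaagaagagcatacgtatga

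The window of EPR1 held neither motif, that of GEA6 held ACGTG alone, and those of SESA3 and OLEO1 held both. ACGTG was found in 22.9% of 27443 windows of protein-coding nuclear genes and CATGCA in 8.43%. Of these windows 7783 lay over another annotated gene, and they were kept in the counts. Of the 26 top 30 genes whose transcript length matched the reference, 19 (73.1%) held ACGTG and 15 (57.7%) CATGCA. Over the 90 such genes of the top 100 the shares were 64.4% and 41.1%, and over the ranks from there down to 1000 they were 29.1% and 7.43%. The classes differed in their letters. Of 15 storage protein windows 11 held ACGTG and 11 CATGCA, and of the 19 expressed oil body genes 13 held ACGTG and 15 CATGCA. Of the 54 expressed LEA and dehydrin genes 38 held ACGTG and 8 CATGCA, while of the 35 LEA genes below 1 FPKM 6 held ACGTG and 5 CATGCA. Of 198 cytosolic ribosomal protein windows 43 (21.7%) held ACGTG and 11 (5.56%) CATGCA. These are matches of letters in a fixed window, not sites at which a factor was measured.

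Grouped by function, seed storage proteins were the largest named class. They held 18.1%, 14.5% and 14.1% of the total in mock 1, 2 and 3 (15.6% ± 2.17, SD, n = 3). The class was a list of 15 loci picked by hand, of which 14 were expressed. Mock 1 was the high library. LEA proteins and dehydrins held 10.9%, 11.5% and 11.1% (11.2% ± 0.291), from 54 expressed genes of 89. Their share was lowest in mock 1 and highest in mock 2. EPR1 by itself held 5.60%, 7.22% and 6.53%, more than the oil body class with its 19 expressed genes, which held 4.75%, 4.57% and 4.29% (4.54% ± 0.233). In mock 1, 2 and 3 alike EPR1 exceeded that class, and the storage class exceeded the LEA class.

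Defensins and other small cysteine-rich proteins held 2.99%, nearly all of it from LCR67, which alone held 2.66%. Redox and metal-binding proteins held 2.54%, transcription factors and zinc finger proteins 1.95% from 693 expressed genes, and cytosolic ribosomal proteins 1.94% from 185 expressed genes of 198. Kinases and phosphatases held 1.56%, the ubiquitin and proteasome class 1.46%, proteases and their inhibitors 1.44%, heat shock proteins 1.27%, and the enzymes of reserve oil breakdown and gluconeogenesis 1.24%. Cell wall proteins other than EPR1 held 1.12%, relatives of the major latex protein (MLP-like) 1.1%, transporters 0.932% and translation factors 0.809%. Histones held 0.211%, genes of the organelle genomes 0.0518% and nuclear photosynthesis genes 0.0453%. Genes of no known function held 5.18%, and the 13838 listed genes placed in none of these classes held 30.6%.

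**Figure D3:**
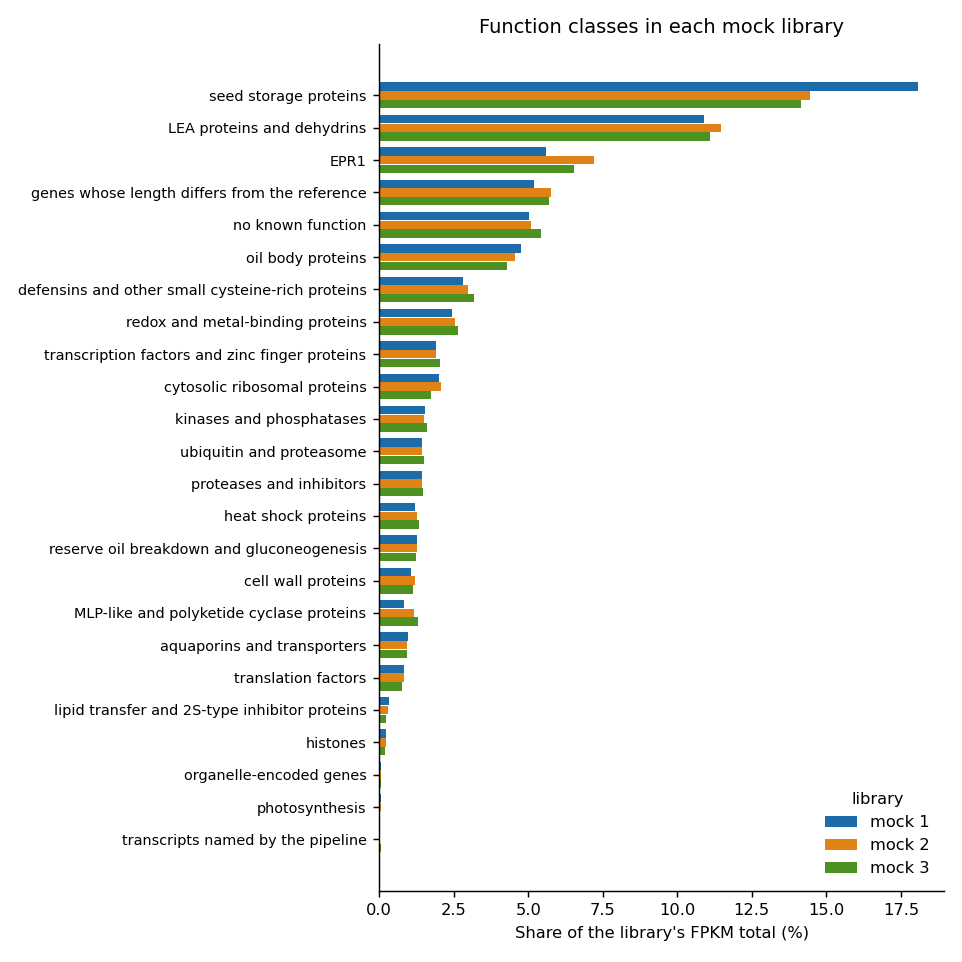
Share of each library's FPKM total (horizontal axis, percent) held by each function class, with 1 bar per mock library; the class of other named genes (30.6%) is left out. Storage proteins are longest at 14.1% to 18.1%, LEA proteins and dehydrins follow at 10.9% to 11.5%, and the histone, organelle and photosynthesis bars lie near 0.

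Within the storage class all 5 napins and all 4 cruciferins were expressed. The napins ran from SESA3 at 27126 FPKM to SESA1 at 2924 (means of 3 libraries), with SESA4 at 8810.1 and SESA2 at 3987. SESA1 to SESA4 are closely related copies that lie side by side, so the division of fragments among them is uncertain. SESA1 had 4444, 2222 and 2106 FPKM and SESA2 had 5671, 3280.4 and 3009.9, with mock 1 the high library for both. The cruciferins ran from CRU3 at 18320.4 FPKM to AT1G03890 at 291, with CRU2 at 3514. Of 14 expressed storage genes 11 were highest in mock 1, as were 33.8% of all expressed genes.

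LEA proteins are small hydrophilic proteins that build up as seeds dry. After RAB18 came AT3G15670 at 8802 FPKM, the dehydrin gene LEA at 7095, GEA6 at 5823, M10 at 3842 and LEA7 at 3616 (means, n = 3). GEA6 was nearly level, with 5760.2, 5824 and 5887 FPKM, and AT3G15670 had 8717, 9009 and 8679.9. Of the top 100 genes 22 belonged to this class. The class was split, since 54 genes reached 1 FPKM, with a median of 319.6 FPKM among them, and 35 did not. The plot of families uses a narrower list by symbol and product, with 66 annotated members of which 41 were expressed.

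Of 13 annotated oleosins 11 were expressed. OLEO4 averaged 4025 FPKM and OLEO2 3663, OLEO2 with 3685, 3624 and 3681 in the 3 libraries, and AT5G07571 and AT5G07600 were not listed. Steroleosins are oil body dehydrogenases. The symbol HSD1 covers 2 near-identical loci, AT5G50700 with 3699, 3989 and 2851 FPKM and AT5G50600 with 1485, 1235 and 2241. The 2 loci moved in opposite directions between libraries, and how fragments were divided between such copies was not given, so the values of each are uncertain. HSD4 and HSD7 were listed with the same values, 0.39, 0.28 and 0.5 FPKM.

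Enzymes that turn stored oil into sugar were present beside the reserves. ICL led, MLS, for malate synthase, the other enzyme particular to the glyoxylate cycle, averaged 1736 ± 124 FPKM, and PKT3, for a thiolase of fatty acid β-oxidation, averaged 746 ± 37.8. PCK1, for the phosphoenolpyruvate carboxykinase of gluconeogenesis, had 564, 606 and 537 FPKM. Of 21 listed genes in this class, which was also picked by hand, 19 were expressed, and the median CV between libraries was 5.06%. Among the Biological Process terms deposited with the genes, fatty acid β-oxidation had 29 of 30 listed genes expressed and peroxisome organization 20 of 20. Over all listed genes 60.3% were expressed. Genes not listed for any mock library are not counted in these terms, unlike in the families below.

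By those terms, which overlap because a gene can carry several, response to abscisic acid held the largest share, 12.5%, 11.4% and 11.2% of the total in mock 1, 2 and 3, from 353 genes of which 262 were expressed. RAB18 made up 25.9% of it. Seed germination held 9.48%, 11% and 9.99%, but EPR1 made up 63.5% of that term, and without it the term held 3.70%. Response to water deprivation held 6.79% and lipid storage 4.11%. Among terms of at least 20 listed genes, the lowest shares expressed were in DNA replication initiation with 3 of 21 and cell wall modification with 8 of 50. Pectin catabolic process followed with 12 of 62, against 60.3% of all listed genes. All 40 listed genes of mRNA transport were expressed. The 13804 genes with any term held 70% of the total.

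The other families were counted over all annotated members, and a member was called silent where it was below 0.05 FPKM or not listed in all 3 libraries. Of 72 families, 5 had no member at 1 FPKM. These were the 10 B-type cyclins of mitosis, the MCM2 to MCM7 subunits of the replicative helicase, the 11 YUC flavin monooxygenases of auxin synthesis, the 30 CLE signal peptides and the 70 genes of the plastid genome. The highest of each was CYCB1;5 at 0.61, 0.73 and 1.19 FPKM, MCM5 at 1.04, 0.83 and 0.79, YUC6 at 0.17, 0.14 and 0.11, CLE16 at 0.4, 0.12 and 0.43, and ATCG00020 at 0.73, 0.49 and 0.7. CYCB1;5 and MCM5 passed 1 FPKM in 1 library each, so this count depends on the threshold. In 7 families every member was expressed: cruciferins, napins, catalases, clade A PP2C phosphatases, ethylene receptors, phytochromes and α-tubulins.

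**Figure D4:**
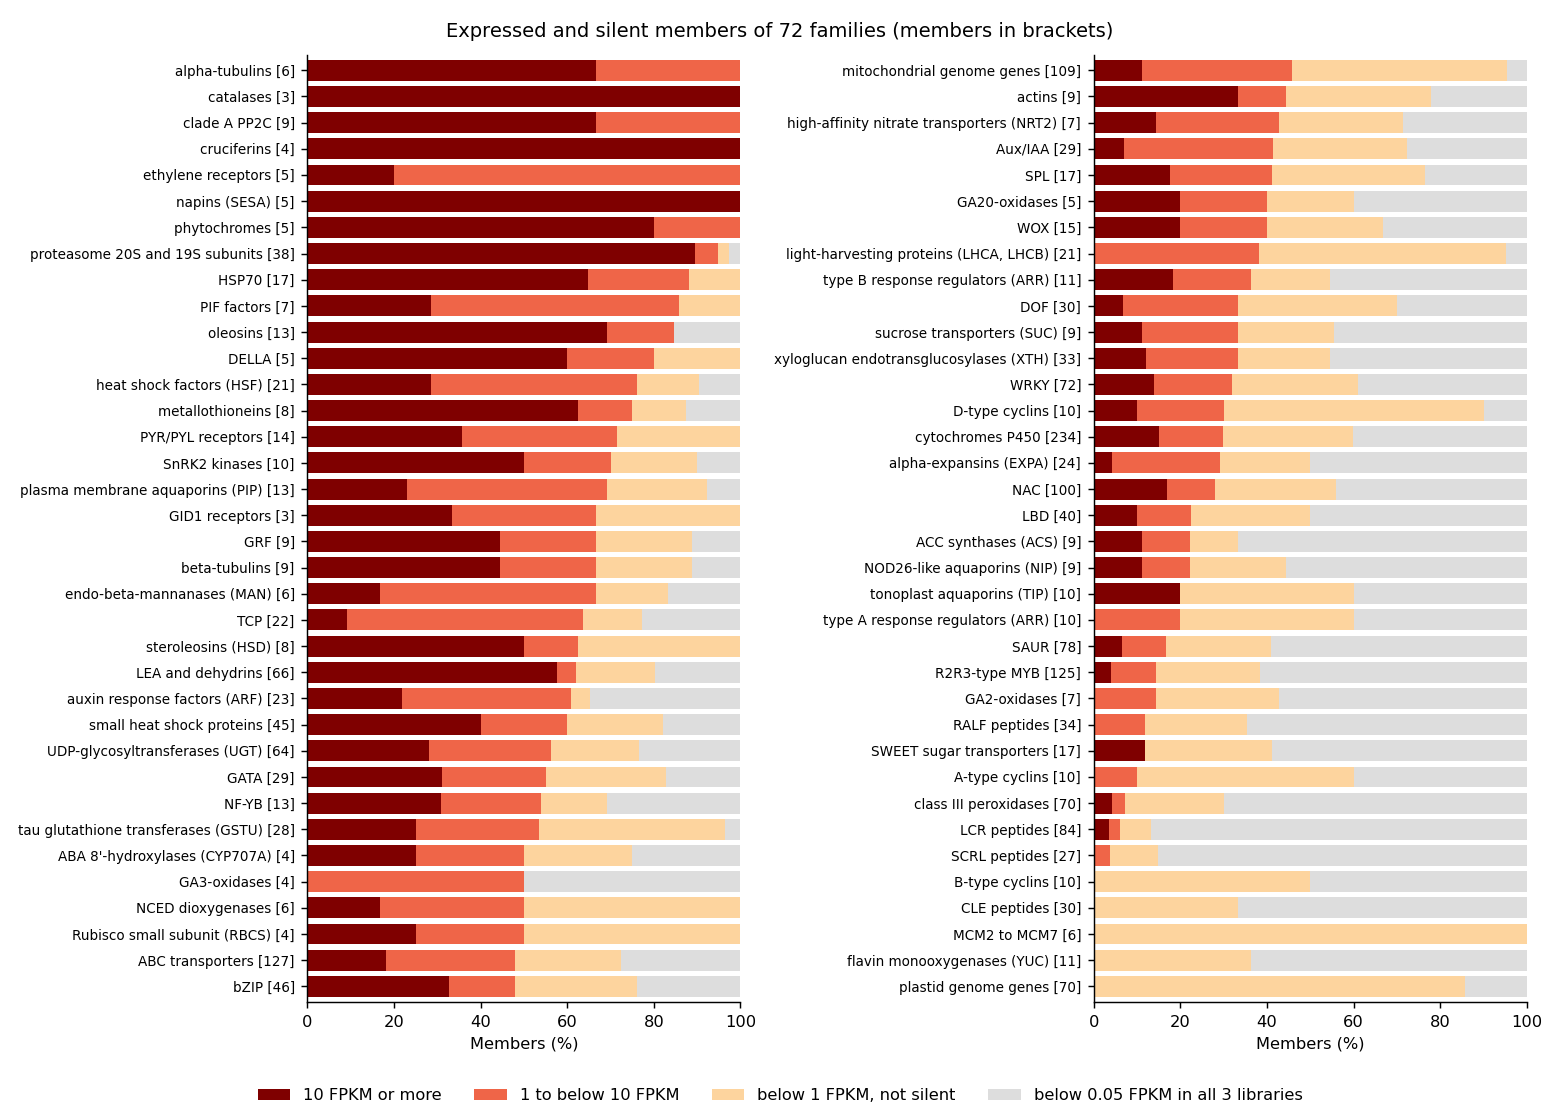
Percent of the annotated members (horizontal axis) of 72 families at 10 FPKM or more, at 1 to below 10, below 1 but not silent, and below 0.05 FPKM in all 3 mock libraries, with the number of members in brackets and families ordered by the percent at 1 FPKM. Napins, cruciferins and catalases are at 10 FPKM or more throughout, and the 5 bars at the bottom right have no member at 1 FPKM.

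Over all 27562 annotated protein-coding genes 47.7% reached 1 FPKM. Of the 43 members of 5 families counted under abscisic acid 31 did. The families were counted whole, and whether each member acts in this pathway was not tested. All 9 clade A PP2C genes, phosphatases that restrain the signal, were expressed, and AHG1, which is known to act in seeds, stood far above the others with 379.9, 409 and 431 FPKM, the next being PP2CA at 21.6. Of 14 PYR/PYL receptors 10 were expressed, led by PYL5 at 38.7 and PYR1 at 26.3 FPKM. Of 10 SnRK2 kinases 7 were, with SNRK2.10 at 221, SNRK2.3 at 83.9 and SNRK2.2 at 50.3 FPKM. Of 6 NCED dioxygenases 3 and of 4 CYP707A hydroxylases 2 were expressed. NCED4, for a carotenoid cleavage dioxygenase, averaged 41.4 FPKM and NCED9, for a step of abscisic acid synthesis known from seeds, 4.94. NCED3 was at 0.14. CYP707A2, for the seed enzyme that breaks the hormone down, had 29.1, 28.5 and 29.3 FPKM, while CYP707A4 was not listed in any library. ABI3 had 83.4, 77.9 and 71.2 FPKM and ABI5, for a bZIP factor of the same pathway, had 255, 269 and 295. The order of the libraries was opposite for these 2 genes.

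Of the 24 gibberellin genes in 5 families 11 were expressed, near the 47.7% of all annotated protein-coding genes. GA20OX3 had 22.9, 26.4 and 11.1 FPKM, with mock 3 low, and GA3OX1 and GA3OX2, for the last step of synthesis, averaged 2.56 and 1.60. GA3OX1 had 3.23, 2.9 and 1.55 FPKM, again lowest in mock 3. GA20OX4, GA3OX3 and GA3OX4 were silent, and of 7 GA2-oxidases, which inactivate the hormone, GA2OX2 alone passed 1 FPKM, at 1.85. Of the 3 GID1 receptors 2 were expressed, GID1A with 43.5, 44.6 and 43.7 FPKM. Of the 5 DELLA repressors 4 were expressed. RGL3 averaged 16.6 FPKM, GAI 12.5, RGL2 10.8 and RGA1 8.81, and RGL1 was at 0.26. The dormancy gene DOG1, chosen after its values were seen, had 19.9, 16 and 17.2 FPKM.

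Of the ethylene genes counted 7 of 14 were expressed, of the auxin genes 39 of 141, of the cytokinin genes 6 of 21 and of the light signalling genes 11 of 12. Over all annotated protein-coding genes 47.7% were, and the ethylene count was near that share. All 5 ethylene receptors were expressed, ETR1 highest at 12.2 FPKM, while of 9 ACC synthases ACS2 reached 12.1 and ACS6 1.63 and the other 7 were below 1. In auxin signalling 14 of 23 ARF factors were expressed, led by ARF2 at 57.6 FPKM, and 12 of 29 Aux/IAA genes, led by IAA9 at 55.8. Of 78 SAUR genes 13 passed 1 FPKM. Type B response regulators of cytokinin signalling had 4 of 11 expressed, with RR1 at 34.7 FPKM, and the type A genes 2 of 10, with RR3 at 2.51. All 5 phytochromes were present. PHYA led with 53.1, 51.3 and 47 FPKM, and of 7 PIF factors 6 were expressed, of which PIL5, a repressor of germination in darkness, led at 48.7.

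Over the 13 transcription factor families counted 182 of 539 members were expressed, where 47.7% of all annotated protein-coding genes were. Of 100 NAC genes 28 were expressed, of 72 WRKY genes 23, of 125 R2R3-type MYB genes 18, of 46 bZIP genes 22, of 40 LBD genes 9 and of 30 DOF genes 10. ATAF1 led the NAC genes with 353, 380.4 and 365 FPKM, followed by NAC089 at 190.1. LBD41 had 272, 286 and 261 FPKM and LBD40 187, 190.1 and 136, and the mean of LBD41, 273 FPKM, exceeded that of every WRKY and MYB gene counted. WRKY15 averaged 207 FPKM, GRF8 172, HSFA9, a heat shock factor known from seeds, 85.5, and WOX12 55.2. FLC, the flowering repressor, averaged 29.99 FPKM. In the class of transcription factors and zinc finger proteins, EBP, an ethylene response factor, was highest at 629 ± 19.2 FPKM, and SOM, for a zinc finger repressor of germination, averaged 238 ± 14. MYBR1, the highest MYB gene, averaged 50.6. Of the DOF genes CDF2 was highest at 29.7 FPKM.

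In the TIP and SWEET families 20% and 11.8% of the members reached 1 FPKM, against 47.7% of all annotated protein-coding genes. Of 10 tonoplast aquaporins 2, both known from protein storage vacuoles, were expressed. TIP3;1 had 2028, 1937 and 1779 FPKM and BETA-TIP 1425, 1257 and 1379, and the next member, TIP2;2, averaged 0.117. Of 7 NRT2 nitrate transporters 3 were expressed (42.9%), near the share of all annotated protein-coding genes. NRT2.7, known for nitrate storage in seeds, had 265, 243 and 236 FPKM, the next being NRT2.5 at 8.33. Of 17 SWEET sugar transporters SWEET1 at 26.7 and SWEET6 at 21.5 FPKM were expressed, and of 13 plasma membrane aquaporins 9 were, PIP1B the highest at 106. Of 127 ABC transporters 61 were expressed (48.0%), near the 47.7% of all annotated protein-coding genes, and none was above the 104.4 FPKM of ABCC14.

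In the XTH and α-expansin families 33.3% and 29.2% of the members reached 1 FPKM, against 47.7% of all annotated protein-coding genes. Of 33 XTH genes, whose enzymes cut and rejoin xyloglucan, 11 were expressed. XTH25 had 1430.5, 1724 and 1704.5 FPKM and the next, XTH11, averaged 41.4. Of 24 α-expansins 7 were expressed and EXPA1 was the highest at 10.8 FPKM. Of 6 endo-β-mannanases 4 were, led by MAN1 at 17.9. The proline-rich extensin-like gene AT5G59170 had 4019, 4889 and 4496 FPKM. Its order of libraries, mock 1 lowest and mock 2 highest, was that of EPR1.

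Most members of the protein care families were expressed, 78 of 100, where 47.7% of all annotated protein-coding genes were. The redox families had 29 of 109, a count that includes 70 class III peroxidases with 5 expressed. In the redox and metal-binding class, which is drawn differently, 133 of 191 listed genes were expressed, against 60.3% of all listed genes. Of 38 proteasome subunits 36 were expressed, with RPT3 highest at 184 FPKM and a narrow 186, 185 and 179.5 between libraries, and 15 of 17 HSP70 genes were. Of 45 small heat shock genes 27 were, and HSP17.4 was far above the next, HSP23.6-MITO at 227 FPKM. The 3 catalases, which break down hydrogen peroxide, averaged 1503 (CAT3), 1198 (CAT2) and 72.5 FPKM (CAT1). PER1, for the 1-cysteine peroxiredoxin of seeds, averaged 3277 ± 247 FPKM, and AtMT4b and AtMT4a, for seed metallothioneins, 1432 and 1081. Of 8 metallothioneins 6 were expressed, and of 28 tau glutathione transferases 15, led by GSTU19 at 535 FPKM. Of the class III peroxidases 5 of 70 reached 1 FPKM, AT1G71695 highest at 60.4, and 49 were silent.

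Genes of cell division and of green tissue were mostly low, where 47.7% of all annotated protein-coding genes reached 1 FPKM. Beside the B-type cyclins, 1 of 10 A-type cyclins (CYCA3;4 at 4.05 FPKM) and 3 of 10 D-type cyclins were expressed, with CYCD2;1 at 15.4. Of 21 light-harvesting genes 8 passed 1 FPKM and none 10, and of 4 Rubisco small subunit genes RBCS1A and RBCS3B did, at 25.8 and 1.59. No plastid gene reached 1 FPKM, against 50 of 109 mitochondrial genes, the highest being ATMG01190 with 37.9, 29.9 and 43.1. The labels do not say how RNA was selected for the libraries, and the part of that choice in the organelle levels was not tested. Of the cytoskeletal genes all 6 α-tubulins, 6 of 9 β-tubulins and 4 of 9 actins were expressed, with ACT7 the highest actin at 125 FPKM, and 2 actins were silent. Of the secreted peptides 5 of 84 LCR genes were expressed and 73 were silent, although LCR67 was among the top 10 genes.

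The spread between the 3 libraries was small for most genes. Over the 13273 expressed genes the median CV was 8.36%, with quartiles of 5.03% and 13.1%. By level the median was 11.98% at 1 to 5 FPKM, 7.74% at 5 to 20, 6.18% at 20 to 100, 6.63% at 100 to 1000 and 7.26% above that. Between 2 libraries, FPKM + 1 differed 2-fold or more for 21 genes in mock 1 and 2, 37 in mock 1 and 3 and 25 in mock 2 and 3. Mock 3 was the library farthest from the gene's mean in 5977 genes (45%), against 3809 for mock 2 and 3487 for mock 1. Without mock 3 the median CV of the other 2 libraries was 5.35%, while it was 7.79% without mock 1 and 7.33% without mock 2.

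Over all 13273 expressed genes 33.8% were highest in mock 1, 20.97% in mock 2 and 45.3% in mock 3, while 26.3% were lowest in mock 1, 42.97% in mock 2 and 30.8% in mock 3. Some classes departed from these shares, which is given as a description with no test. Of 185 expressed cytosolic ribosomal protein genes, 167 were lowest in mock 3, and their median deviation there from the gene's own mean was -0.17 on the log2(FPKM + 1) scale, against 0.07 in mock 1 and 0.10 in mock 2. AT5G20290, for example, had 285, 295 and 236 FPKM. Storage genes had a median deviation of 0.20 in mock 1, -0.12 in mock 2 and -0.16 in mock 3. Of 50 expressed organelle genes 31 were highest in mock 3 and 40 lowest in mock 2, with medians of -0.22 in mock 2 and 0.16 in mock 3. The median deviation of LEA genes was -0.02 in mock 1 and 0.01 in mock 2 and mock 3. Of 54 expressed LEA genes 26 were lowest in mock 1, 17 in mock 2 and 11 in mock 3. The median CV of these 54 genes was 6.91%, and that of RAB18 was 6.79%. The share of MLP-like proteins was 0.814% in mock 1, 1.18% in mock 2 and 1.3% in mock 3, and AT1G14950, the highest of them, had 2526, 3615 and 4054 FPKM.

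**Figure D5:**
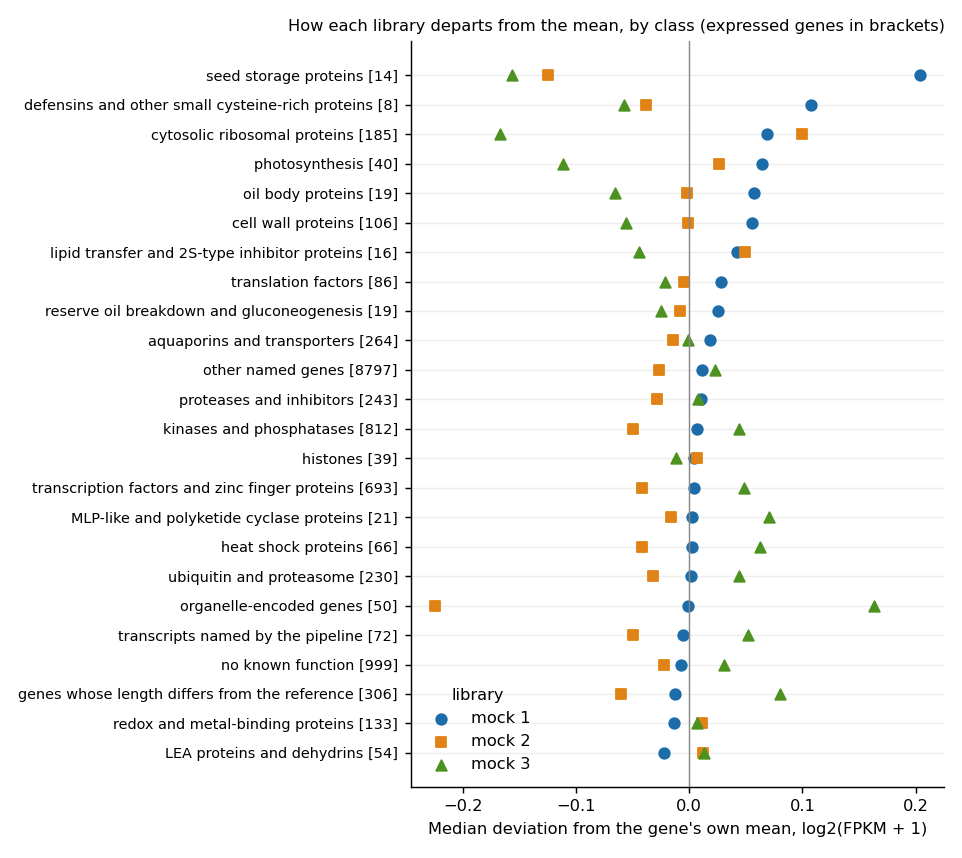
Median deviation of each mock library from the gene's own mean over 3 libraries (horizontal axis, log2(FPKM + 1)) for the expressed genes of each class, with the number of genes in brackets. Mock 1 lies at 0.20 for storage proteins, mock 3 at -0.17 for cytosolic ribosomal proteins and mock 2 at -0.22 for organelle-encoded genes, while the medians of LEA proteins lie near 0 in all 3.

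Of 3755 genes with a mean of at least 20 FPKM, 7 differed by 2-fold or more between the highest and the lowest library. The widest was CWLP, for a cell wall to plasma membrane linker protein, with 46.5, 43.5 and 18.3 FPKM, then AGP7, for an arabinogalactan protein, with 95.4, 81.6 and 39.5. In both, and in GA20OX3, DGR2 and RBCS1A, mock 3 was the low library. RBCS1A had 34.4, 26.6 and 16.5 FPKM. SESA1, NSP5, for a nitrile specifier protein, and ATS3, for an embryo-specific protein, were instead high in mock 1. NSP5 had 100.3, 50.8 and 52 FPKM and ATS3 had 59.7, 32 and 30.8. MLP31, with 836, 1445 and 1838 FPKM, and AT2G34315, with 55.6, 85.3 and 106.5, were lowest in mock 1.

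At the other extreme, UBC18, for a ubiquitin-conjugating enzyme, had 37.03, 36.99 and 37 FPKM, a CV of 0.0563%. AT1G73230 and NACA3, for subunits of the nascent polypeptide-associated complex, had 171.04, 171.16 and 171.44 FPKM and 144.14, 144.22 and 144.59 FPKM. AT4G28300, ATSTE24, PTAC17, AT3G01850, TAAC, AT1G02305 and AT3G10030 completed the 10 narrowest genes, with CVs from 0.189% to 0.304%. With 3 libraries, these genes are a description of the libraries at hand, picked as the lowest of 3755.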

How the data were processed

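RNA of 3 libraries of DOF6ioex mock seeds was sequenced. The aligner was HISAT, per the submitters' processing notes. Its version, the quantifier, the genome build and any use of strand were not given in the sources used here. Per gene the authors deposited 1 FPKM value, per the file headers. Values have 2 decimals, none is under 0.01, and the transcript length stands beside them. Each library stood in a table of its own. The tables were joined, and a gene missing from a library (2824 genes in at least 1 library) was set to 0.01. No scaling was applied.

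All 21685 nuclear genes matched the RefSeq TAIR10.1 table by locus tag, the other genes being 109 mitochondrial, 70 plastid and 140 named by the authors' pipeline. Of 11964 genes with a single reference transcript, 10933 (91.4%) had the deposited length. Sequences and coordinates are those of TAIR10.1, since the files name no build. Classes had been planned from the deposited database descriptions. These conflicted with the reference for genes of differing length, so reference products and symbols were used instead. The database description was kept where the product was uninformative. The storage class and the class of reserve oil breakdown and gluconeogenesis were fixed lists of loci picked by hand. Families that symbols do not mark, such as bHLH and ERF genes, were not counted, some planned results are not reported here, and ABI5 is not among the bZIP genes counted by symbol.

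Depth is an estimate from low values. At the depth chosen, 77.4% to 82.8% of them lay within 0.15 of whole fragments with 50 bases taken off each length. With full lengths 60.3% to 63.4% did. Chance gives 30% at a depth fixed beforehand. The depth was the best of those tried, so 30% is too low a base for these shares. No counting interval was derived from the estimate. No test was made, since 1 group is described, and values are given per library with mean ± SD. Named are the 30 most abundant genes, the leading and silent members of each family, and the 10 widest and 10 narrowest genes by spread at 20 FPKM or more. The members and lists were chosen with earlier results of these data known. The computations were tested on simulated data. Alternatives were FPKM multiplied by length, other thresholds, other denominators and class sources, and leaving out each library. Python 3.11.15, pandas 2.3.3, numpy 2.4.6 and matplotlib 3.10.9 were used.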

Additional observations from a re-analysis of the deposited data

How the results depend on the processing

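Weighting by length, so that shares are of estimated fragments, gave 10.8% for EPR1, 8.04% for LEA proteins, 3.27% for oil body proteins, 1.36% for ribosomal proteins, 1.35% for heat shock proteins and 0.0339% for organelle genes, with 87 genes holding 50% of the total, and it kept 25 of the 30 top genes, bringing in BGLU19, AT2G01008, PER1, AT1G05510 and MLS. With EPR1 left out of the denominator the shares were 11.9% for LEA, 4.85% for oil body and 1.36% for heat shock proteins. With classes from Biological Process terms they were 9.08% for LEA, 4.11% for oil body, 2.59% for ribosomal and 3.26% for heat shock proteins. Photosynthesis genes held 0.129% by such terms. The heat shock value by terms counts AT5G11980, named above without a role, which alone held 0.789% of the total. Storage proteins have no value, because the term searched for, nutrient reservoir, names a molecular function and not a process. Classes from the database description alone, an alternative chosen after seeing the data, gave 1.57% for ribosomal proteins.

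At a threshold of 5 FPKM 8747 genes counted as expressed and 11 families had no expressed member, and at 0.5 FPKM 2 families had none, against 5 at 1 FPKM. Without a filter on low values the median CV was 11.8%. Without each library in turn it was 5.35% to 7.79%, the lowest without mock 3, the storage share was 14.3% to 16.3%, and 13214 to 13304 genes were expressed. Of the alternative values computed, 71 moved by less than 1 SD between libraries or, for counts, stayed within 1.5 times, and 21 moved further. The 71 include shares with 1 of 3 libraries left out, which cannot move by 1 SD, so these say nothing on robustness. They also include 1 value of the spread on a log2 scale that was not held to this rule. Low genes rest on few fragments, and the depth behind them is an estimate. No paired analysis was possible because 1 group is described and no result comes from a test.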
